A study of Mus musculus with 8 samples.

Results

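Ribosome biogenesis is the assembly of ribosomal subunits in the nucleolus. RNA polymerase I transcribes the precursor of the ribosomal RNAs, small nucleolar ribonucleoproteins (snoRNPs) modify it, and successive sets of assembly factors fold, cut and export the small and the large subunit. The genes encoding these factors are broadly expressed, are textbook targets of MYC proteins, and are prominent in growing lymphoid cells, whose proliferation rests on protein synthesis. Of 40 such genes listed by name, 39 could be measured, out of 18193 genes in all. Npm3, a nucleophosmin relative, had no probe set annotated with its symbol alone. A gene was represented by its probe set of highest mean among those with exactly 1 annotated symbol, so that no measured difference entered the choice.

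The measurements came from T29 cells, a thymic lymphoma line of the mouse that the series text describes as lacking Ikaros, the zinc finger factor that restrains T cell precursors. All groups shared this background and a retrovirus, MigR1, either empty or carrying Ik1ER, an inducible form of Ikaros that responds to 4-hydroxytamoxifen (4OHT). The 4 groups were MigR1 cells in ethanol, MigR1 cells in 100 nM 4OHT, Ik1ER cells in ethanol and Ik1ER cells in 100 nM 4OHT, each for 24 h and each with 2 Affymetrix arrays. Nothing in the labels tells whether paired arrays represent independent cultures or whether a transduced line was 1 clone. The p-values therefore reflect array-to-array spread, possibly technical in origin, and precision is limited by having 2 arrays per group.

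The arrays carried their labels in part. A probe set of Ikzf1, the Ikaros gene, averaged 10.87 on the Ik1ER arrays and 8.23 on the MigR1 arrays (log2), with no overlap, while the other differed by -0.07 between the lines. On average, all 9 measured T cell markers of 10 listed read above 5.27, the highest mean among Bacillus control probe sets and a gauge of background. Cd2 did so narrowly (mean 5.36, from 4.70 to 6.19 over the arrays). The Cd3d, Cd3e, Cd3g, Cd247 and Thy1 probe sets lay at 10.42 or higher on each array. The B cell markers Cd79a, Cd79b and Ms4a1 and the collagen genes Col1a1, Col1a2 and Col3a1 read below that control on average. With 4OHT in Ik1ER cells limma called 4 of the 9 T cell markers lower (Cd3d, Cd3e, Cd3g and Ptcra) and 2 higher (Cd2 and Trat1). The summed log2 level of the 9 ran from 93.93 to 94.86 over the group means, and that of the 6 myeloid markers from 30.93 to 32.46. Markers that rise and markers that fall offset each other in such a sum. Of the myeloid markers Cd14 (-1.26, adjusted p = 0.000592) and Lyz2 (-0.60, adjusted p = 0.0225) were called lower by limma. Itgam (0.54, limma, adjusted p = 0.0208) was called higher, but read below the Bacillus level on each array (4.33 to 5.01). Elane and Mpo also read below that level, and Lyz2 lay near it (mean 5.36). The part of these markers in the results below was not tested. In all, 2 of 5 B cell, 3 of 6 myeloid, 2 of 3 erythroid and 1 of 5 stromal markers read above the Bacillus level on average. The stromal one, Pdgfrb, read well above it, at 9.06 (8.57 to 9.60 over the arrays). Pdgfrb differed by -0.905 with 4OHT in Ik1ER cells and was not called. The B cell ones were Pax5 (5.88) and Blk (5.31). The Ik1ER replicate 2 arrays stood apart in control probe sets. The 18S rRNA control read 10.07 on the ethanol one (8.54 to 9.18 elsewhere), and the hybridisation controls averaged 8.86 on the 4OHT one (9.41 to 9.54 elsewhere). On both, the transferrin receptor signal was higher at the 3' than at the 5' end by 1.66 (ethanol array) and 1.91 (4OHT array), while the remaining 6 arrays ranged from 1.16 to 1.39. The members' medians that rest on these arrays are also given without them. In bulk RNA a lower share of expressing cells and less RNA per cell cannot be told apart, and the normalisation hides any change of total RNA.

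E boxes of sequence CACGTG, which MYC proteins bind, and matches to the Ikaros core TGGGAA show what the promoters of these genes hold. RefSeq promoter windows of GRCm38.p6, from 250 bases before to 50 after a transcript start, were at hand for 35 of the 40 genes, Npm3 among them. CACGTG, which reads the same on both strands, was found for 6 of the 35 (17.1%), against 8.09% of 27025 genes with a window. TGGGAA, searched on both strands, was found for 10 of the 35 (28.6%), against 28.3% of all genes. The E box windows of the 4 holders with the smallest p-value for 4OHT in Ik1ER cells follow, each 5′ to 3′ on the gene's strand with the E box in capitals. The window of Mybbp1a is shorter because the promoter window ends there.
Pes1, chr11:3963965-3963994, plus strand: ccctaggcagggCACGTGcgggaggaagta
Wdr43, chr17:71616220-71616249, plus strand: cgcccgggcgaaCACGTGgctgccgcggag
Nop2, chr6:125131811-125131840, plus strand: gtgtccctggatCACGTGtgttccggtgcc
Mybbp1a, chr11:72441355-72441376, plus strand: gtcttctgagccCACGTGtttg
Relative to the start, the first base of the E box was 3, 18 and 41 for Pes1, Wdr43 and Mybbp1a, and -60 for Nop2. Further windows, chosen after their genes' values were seen because both genes are described closely here, hold the Ikaros core or its reverse complement in capitals.
Ddx21, chr10:62602514-62602543, minus strand: cgcagcttttcaTGGGAAaatgttgccagc
Polr1b, chr2:129100969-129100998, plus strand: gaggaactacatTTCCCAgaaggccacggg
The first base of the match was -233 for Ddx21 and -15 for Polr1b. These are matches of letters, and binding was not measured. Ddx21 and Polr1b differed by -0.33 and -0.30 with 4OHT in Ik1ER cells, more than the other holders of the core. Of those, Nop16, Nhp2, Nip7, Rrp9 and Mybbp1a differed by -0.25, -0.17, -0.12, -0.11 and -0.09. Tsr1, Nop58 and Noc3l differed by -0.01, 0.0004 and 0.02. Members with and without the core were not compared. The 6 members with an E box had a median difference of -0.10 between 4OHT and ethanol in Ik1ER cells, and the 28 measured members whose windows lack it -0.11.

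When Ikaros was induced, that is in 4OHT against ethanol in Ik1ER cells, most ribosome biogenesis genes read slightly lower. Of the 39 members 37 lay below 0 on the log2 scale, against 51.2% of all genes, with a range from -0.33 (Ddx21) to 0.02 (Noc3l). Their median was -0.11 (-7.06%), with standard errors of single genes between 0.07 and 0.14, while the median of all genes was near 0. The call rule, an adjusted p under 0.05 in limma with Benjamini-Hochberg adjustment over all genes, was met by 1 member, which fell, and 38 were not called. Of all genes, 2.53% were called lower, 2.8% higher and 5.34% in either direction, so that the count of members called is near the background. At an unadjusted p under 0.05 there were 8 members, all lower, against 8.59% of all genes lower and 17.8% in either direction. For 22 members both 4OHT arrays lay below both ethanol arrays, against 21.7% of all genes. For none did both lie above, against 21% of all genes. Nearly all members thus shared the direction, and few of them passed a test on their own.

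**Figure D1:**
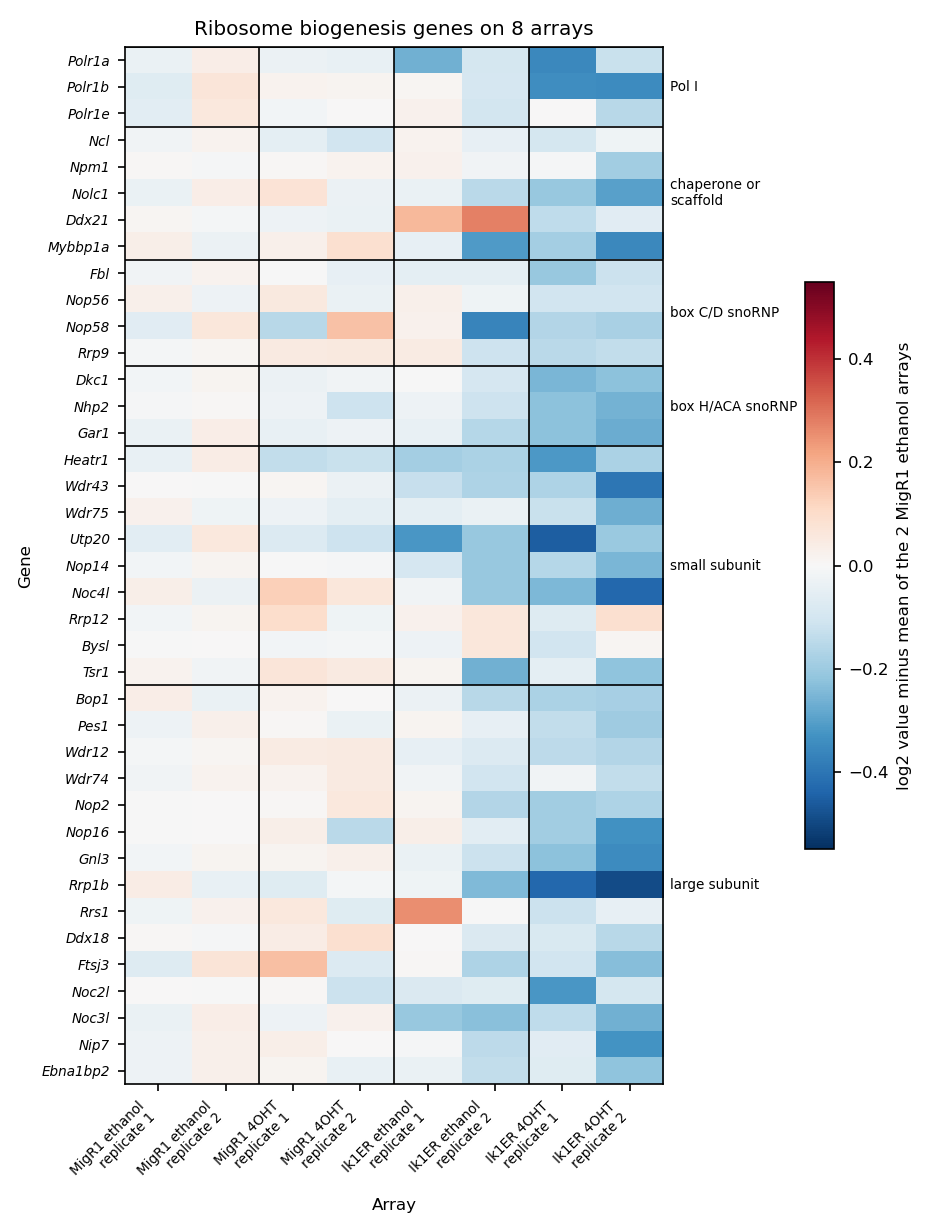
Colour gives the log2 value of each of the 39 measured genes (rows, by role) on each of the 8 arrays (columns) minus the mean of the 2 MigR1 ethanol arrays. The 2 Ik1ER 4OHT arrays are lower for 38 and 37 of the 39 genes, and the Ik1ER ethanol replicate 2 array, on the same scale, for 36.

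Seen by array, the shift had steps. Relative to the mean of the MigR1 ethanol arrays, the median member read 0.01 and -0.02 on the MigR1 4OHT arrays and -0.02 and -0.11 on the Ik1ER ethanol arrays (replicates 1 and 2). It read -0.16 and -0.20 on the Ik1ER 4OHT arrays, the lowest of all. The Ik1ER ethanol arrays therefore differed from each other by nearly as much as the inducer's median effect, and the lower of them is a replicate 2 array with the larger 3' to 5' difference. With both replicate 2 arrays of Ik1ER cells left out, the median of the members was -0.13, with 37 of 39 below 0, while the replicate 2 arrays alone gave -0.07, with 33 below 0. With the 3' to 5' difference as a covariate it was -0.10, with 35 below 0. It was -0.08 without Ik1ER ethanol replicate 1 and -0.15 without Ik1ER ethanol replicate 2.

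Among the abundant nucleolar scaffold and chaperone proteins, Ddx21, an RNA helicase that couples polymerase I transcription with rRNA processing, was the member called. In MigR1 cells its values were 10.65 and 10.63 with ethanol and 10.61 and 10.61 with 4OHT, against 10.82 and 10.92 in Ik1ER cells in ethanol, and 10.50 and 10.58 in Ik1ER cells in 4OHT (log2). Both Ik1ER ethanol arrays stood above the other 6 arrays, and both Ik1ER 4OHT arrays below them. Ddx21 fell by 0.33 (SE 0.07, limma, adjusted p = 0.0395), a 1.26-fold change. Leaving out any single array ended the call (adjusted p from 0.0623 to 0.201). Its other probe set (mean 10.18) read -0.06 (SE 0.11). Against MigR1 cells, Ddx21 read 0.23 higher in ethanol (SE 0.07, limma, adjusted p = 0.913) and -0.07 in 4OHT (adjusted p = 0.685), so that its level with inducer was close to that of the vector cells.

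The other 4 proteins of this group were not called. Nolc1, a phosphoprotein that escorts snoRNPs, read 11.75 and 11.63 in Ik1ER cells in ethanol and 11.57 and 11.48 in 4OHT, a difference of -0.16 (SE 0.08). The 2 other probe sets of Nolc1 read -0.27 and -0.15. Npm1 (nucleophosmin), Mybbp1a, a nucleolar binding partner of MYB proteins, and Ncl (nucleolin) differed by -0.10, -0.09 and -0.05. The probe sets of Ncl ranged from -0.05 for the brightest to -0.56 for the dimmest of 5, and none was called when all probe sets were tested.

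The 3 subunits of RNA polymerase I behaved unequally. Polr1b, which encodes the second largest subunit of the enzyme, had values of 9.29 and 9.42 with ethanol and 9.37 and 9.37 with 4OHT in MigR1 cells. It read 9.37 and 9.26 in Ik1ER cells in ethanol and 9.01 and 9.01 in 4OHT, so that these last 2 arrays stood below all others. The difference in Ik1ER cells was -0.30 (SE 0.08, limma, adjusted p = 0.0699), just outside the threshold. It passed with dim genes left out (adjusted p = 0.0361) and with the trend and robust settings of eBayes (adjusted p = 0.0341), which were 2 of 12 other settings. It failed with only the arrays compared (adjusted p = 0.201) and with each array left out in turn (adjusted p from 0.101 to 0.289). Polr1a, the catalytic subunit, and Polr1e, an initiation subunit, differed by -0.06 and -0.04 with overlapping arrays.

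The snoRNPs guide chemical modification of ribosomal RNA. The 3 members of the box H/ACA class, which convert uridine to pseudouridine, read lower together, though limma called none of them. With 4OHT in MigR1 cells all 3 also lay below 0, from -0.07 (Nhp2) to -0.03 (Dkc1). There the arrays did not overlap, lower with 4OHT, for 2 of the 3, against 13.2% of all genes. Dkc1, the pseudouridine synthase dyskerin, read 12.34 and 12.25 in Ik1ER cells in ethanol and 12.09 and 12.12 in 4OHT, below all other arrays. The difference was -0.19 (SE 0.07, adjusted p = 0.195). The 2 other Dkc1 probe sets read -0.45 and -0.14, and the former was called over all probe sets (SE 0.09, limma, adjusted p = 0.0347). Nhp2 and Gar1, which encode core proteins of the same particle, differed by -0.17 and -0.15, with no overlap between 4OHT and ethanol arrays for either. In the box C/D class, which methylates ribose, Fbl (the methyltransferase fibrillarin), Rrp9 and Nop56 differed by -0.11 each, also without overlap. Nop58, the partner of Nop56, read 11.11 and 10.72 in ethanol and 10.92 and 10.91 in 4OHT, and its ethanol arrays enclosed the 4OHT arrays.

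The 9 members of small subunit assembly all lay below 0, with a median of -0.06, and none was called. Noc4l, a partner of Nop14 in the nucleolar precursor, differed by -0.22 (SE 0.10, limma, adjusted p = 0.275), the largest of this group. With an array left out the Noc4l value ranged from -0.32 (without Ik1ER ethanol replicate 2) to -0.13 (without Ik1ER ethanol replicate 1). Its 3 other probe sets read -0.23, -0.25 and -0.35, so that the 4 probe sets of Noc4l pointed the same way. Wdr75, Wdr43 and Heatr1, of the complex that first binds the precursor RNA, differed by -0.15, -0.14 and -0.06. The late factors Bysl and Tsr1, the latter a GTPase relative, differed by -0.06 and -0.01, Tsr1 being the smallest of this group.

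For 14 of the 15 members of large subunit assembly the difference was below 0, with a median of -0.11. Rrp1b, a nucleolar protein of large subunit precursors, read 10.34 and 10.12 in Ik1ER cells in ethanol and 9.93 and 9.87 in 4OHT, against 10.40 and 10.32 in MigR1 cells with ethanol and 10.30 and 10.35 with 4OHT. Its difference was -0.33 (SE 0.09, limma, adjusted p = 0.0918), and its 2 other probe sets read -0.23 and -0.17. Nop16 and Gnl3 (nucleostemin, a GTP-binding protein of proliferating cells) differed by -0.25 and -0.21, with adjusted p-values of 0.189 and 0.192. Of the complex formed by Pes1, Bop1 and Wdr12, which acts in large subunit assembly, the differences were -0.15, -0.09 and -0.09, each with the 4OHT arrays below the ethanol arrays. Noc3l (0.02) alone in this group lay above 0, while its binding partner Noc2l read -0.14.

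**Figure D2:**
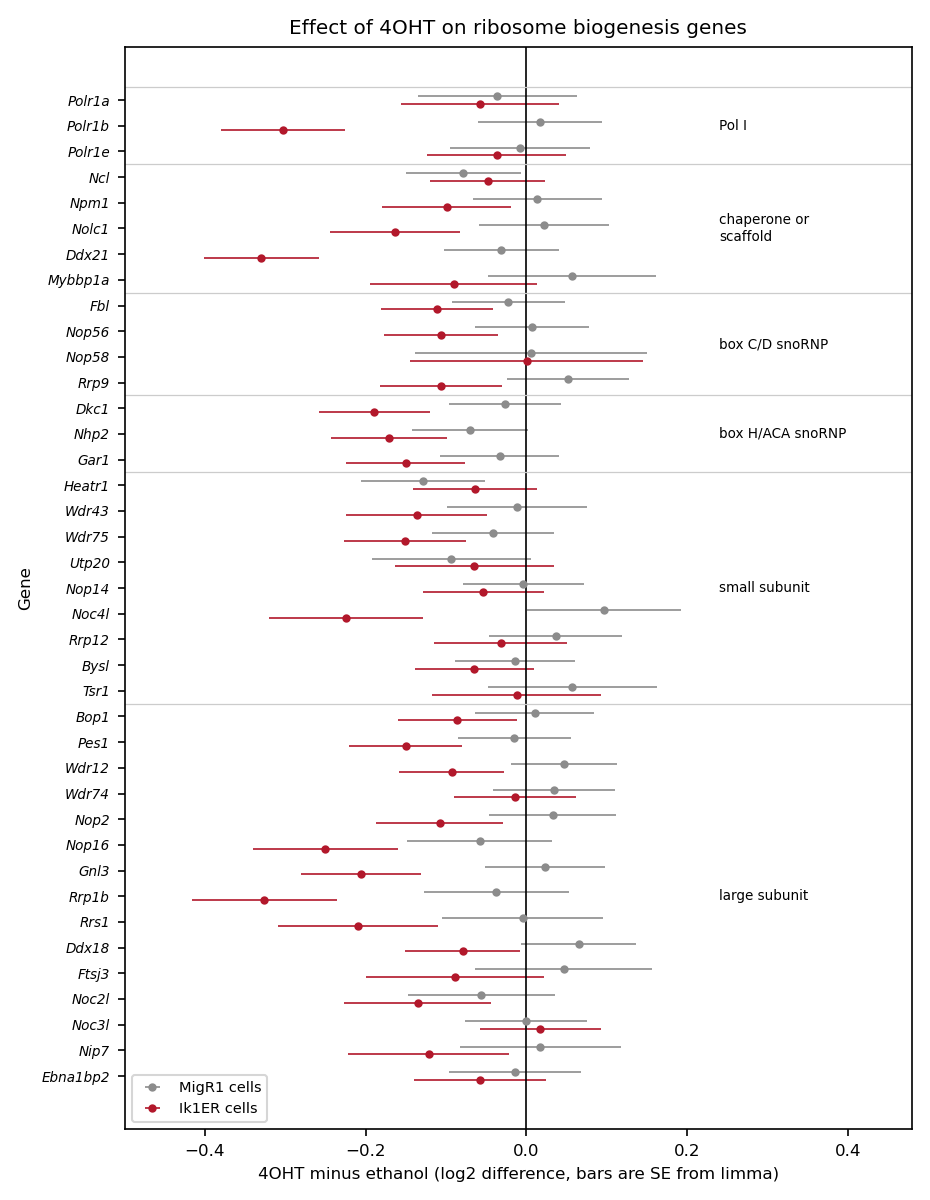
Points give the log2 difference between 4OHT and ethanol for each of the 39 genes, in Ik1ER cells (red) and MigR1 cells (grey), with SE from limma as bars. In Ik1ER cells 37 of 39 points lie left of 0, and in MigR1 cells 21 of 39.

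In the 28 members with further probe sets, most of those pointed the same way. Of 39 such probe sets above the highest Bacillus control mean, 35 had the sign of the probe set used and 36 read below 0 in Ik1ER cells with 4OHT, with a median of -0.12. One each of Ddx18, Polr1a and Wdr75 read above 0. All of them share RNA and array with the probe sets used and are no replicates.

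In MigR1 cells, which show what 4OHT does without Ik1ER, the members did not shift together. The median was near 0, with 21 members below it and 18 above (46.4% of all genes were below), and differences ran from -0.13 (Heatr1) to 0.10 (Noc4l). limma called 0 of 39 members, and 0% of all genes were called. At an unadjusted p under 0.05 there were likewise 0 members, against 2.12% of all genes (1.14% lower). The arrays did not overlap for 8 members lower with 4OHT and 7 higher, against 13.2% and 16.5% of all genes. Heatr1, the member of smallest p here, read 10.25 and 10.33 in ethanol and 10.16 and 10.17 in 4OHT (SE 0.08, limma, adjusted p = 1.00). In Ik1ER cells Heatr1 read 10.10 and 10.12 in ethanol and 9.98 and 10.12 in 4OHT. Ncl read 13.42 and 13.46 in MigR1 ethanol arrays and 13.39 and 13.34 in MigR1 4OHT arrays, a difference of -0.08. In Ik1ER cells its values were 13.46 and 13.39 with ethanol and 13.34 and 13.42 with 4OHT, so that the arrays overlapped. Noc4l differed by 0.10 in MigR1 cells and, like Ncl, was not called.

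The difference between the 2 effects of 4OHT, which tests whether Ik1ER cells responded otherwise than vector cells, was called for 0 of 39 members by limma, against 1.26% of all genes (0.649% lower and 0.616% higher). At an unadjusted p under 0.05 there were 3, all lower, against 5.77% of all genes lower and 11.2% in either direction. They were Polr1b (-0.32, SE 0.11, adjusted p = 0.295), Noc4l (-0.32, SE 0.14, adjusted p = 0.433) and Ddx21 (-0.30, SE 0.10, adjusted p = 0.291). The median of the members was -0.11, with 35 of 39 below 0 (51.1% of all genes were below), and without both replicate 2 arrays of Ik1ER cells it was -0.14, with 38 below 0. No single member was thus shown to respond differently in the 2 lines.

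**Figure D3:**
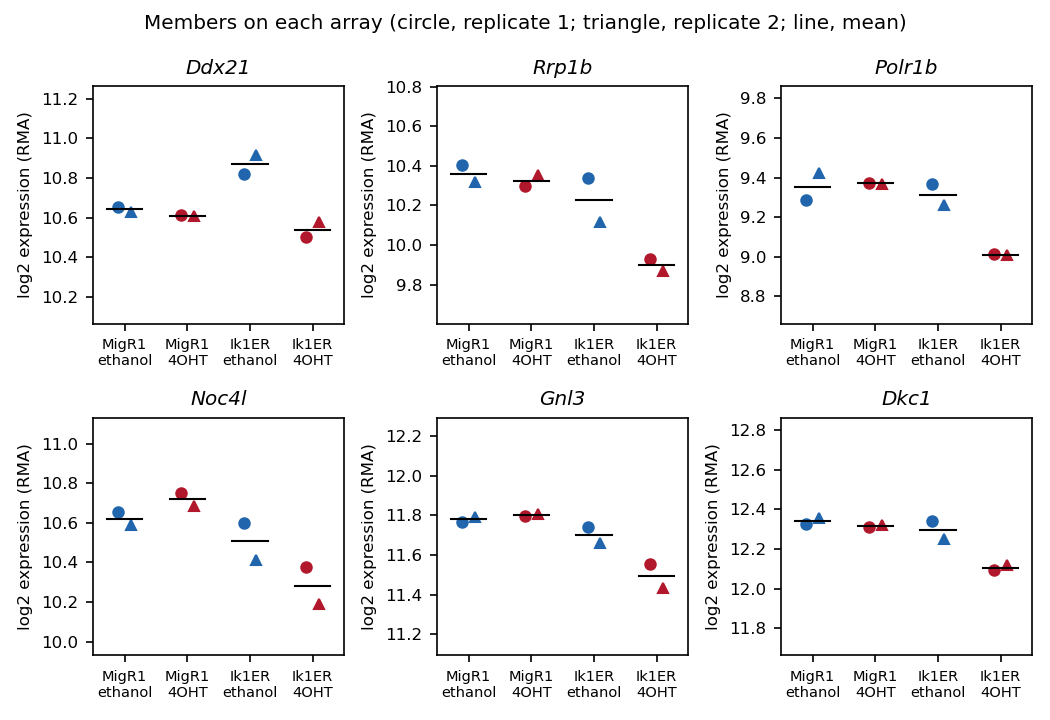
Each panel shows the log2 expression of a gene on the 8 arrays by group, with circles for replicate 1, triangles for replicate 2 and lines for group means, on axes of equal height. The 6 genes, Ddx21, Rrp1b, Polr1b, Noc4l, Gnl3 and Dkc1, were picked with earlier results known and do not stand for all members. Both Ik1ER 4OHT arrays lie below the other 6 arrays in each panel, and Ddx21 is the panel in which the Ik1ER ethanol arrays lie above the rest.

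Compared between the lines in 4OHT, the members were lower in Ik1ER cells by a larger margin. The median was -0.19 (-12.5%), 38 of 39 lay below 0 (50.8% of all genes did), and for 33 both Ik1ER arrays lay below both MigR1 arrays, against 22.6% of all genes. limma called 3 members, all lower, and left 36 uncalled, while 2.17% of all genes were called lower, 2.91% higher and 5.08% in either direction. The Ik1ER 4OHT arrays also enter the comparison with ethanol, so that the 2 comparisons are not independent. Without both replicate 2 arrays of Ik1ER cells the median was -0.16, with 38 of 39 below 0.

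The 3 called members came from 3 steps of the pathway. Rrp1b, with MigR1 4OHT arrays at 10.30 and 10.35, differed by -0.42 (SE 0.09, 1.34-fold, limma, adjusted p = 0.0377). Its other probe sets read only -0.20 and -0.22, and Rrp1b was not called with the mean over probe sets. For Polr1b the difference was -0.36 (SE 0.08, 1.28-fold, adjusted p = 0.0385). Noc4l had values of 10.75 and 10.68 in MigR1 cells and 10.38 and 10.19 in Ik1ER cells, a difference of -0.44 (SE 0.10, 1.35-fold, adjusted p = 0.0418). The other probe sets of Noc4l read -0.32, -0.22 and -0.29. With ethanol the Noc4l values were 10.65 and 10.59 for MigR1 and 10.60 and 10.41 for Ik1ER, with overlapping ranges. These calls depended on single arrays. Polr1b lost its call whichever array was left out (adjusted p from 0.0548 to 0.192). Noc4l kept its call only without Ik1ER ethanol replicate 1, Ik1ER ethanol replicate 2 or Ik1ER 4OHT replicate 1, and Rrp1b only without either of the first 2 (highest adjusted p 0.206 and 0.215). Gnl3 (-0.31, SE 0.07, adjusted p = 0.0611) lay just outside the threshold, with 11.80 and 11.81 in MigR1 cells against 11.56 and 11.44 in Ik1ER cells.

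Counting these, 18 members reached an unadjusted p under 0.05 in this comparison, each of them lower, against 8.13% of all genes. All 3 box H/ACA genes were among them, at -0.17 to -0.22. So were Nolc1 (-0.28), Mybbp1a (-0.33), Wdr43 (-0.27) and Utp20, a small subunit scaffold (-0.23). Ncl (0.02), Rrp12, a factor in subunit export (-0.03), and Bysl (-0.03) differed least.

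In ethanol, where Ik1ER is present without inducer, limma called 0 of 39 members and 0% of all genes. At an unadjusted p under 0.05 there were 4 members, against 5.32% of all genes (2.22% lower). The median was -0.07, with 33 of 39 below 0 (47% of all genes were below). The arrays did not overlap for 15 members that were lower in Ik1ER cells, against 16.8% of all genes. They did not overlap for 2 that were higher, against 20.7% of all genes. With both replicate 2 arrays of Ik1ER cells left out the median was -0.02 with 23 below 0, and with each array centred on its median it was -0.03 with 25 below 0. The 4 were Ddx21, higher as given above, and 3 that read lower. Noc3l read 8.38 and 8.46 in MigR1 cells and 8.21 and 8.19 in Ik1ER cells (-0.22, SE 0.08), and in 4OHT 8.39 and 8.44 against 8.28 and 8.16. Utp20 read 9.60 and 9.71 against 9.34 and 9.45 (-0.26, SE 0.10), and in 4OHT 9.58 and 9.54 against 9.20 and 9.45. For both genes the Ik1ER arrays lay below the MigR1 arrays with either treatment, as they did for Heatr1 and further members such as Gnl3 and Nhp2. The share of all genes with this pattern was not counted. Heatr1 read 10.25 and 10.33 against 10.10 and 10.12 (-0.18, SE 0.08). All 4 had limma adjusted p-values of 0.913. For Noc3l, Utp20 and Heatr1 these differences lay beside 4OHT effects in Ik1ER cells of only -0.06 to 0.02, whereas Polr1b and Nop16 differed between the lines by -0.04 and -0.01 in ethanol and by -0.36 and -0.20 in 4OHT.

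**Figure D4:**
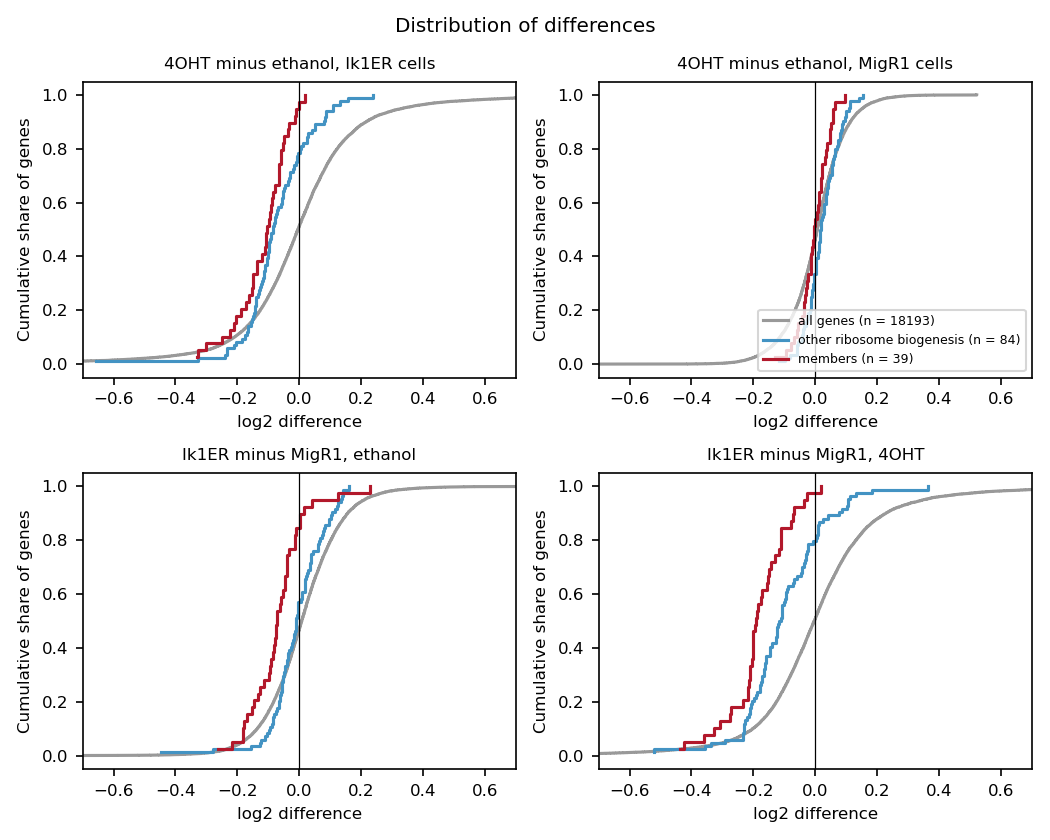
Each panel shows the cumulative share of genes against the log2 difference, for the 39 members (red), 84 other ribosome biogenesis genes (blue) and all 18193 genes (grey, drawn from -0.7 to 0.7). The members' medians are -0.11 for 4OHT in Ik1ER cells, -0.19 for Ik1ER against MigR1 cells in 4OHT and -0.07 in ethanol, all left of 0, and near 0 for 4OHT in MigR1 cells.

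The rest of the pathway was described by 86 further genes, of which 84 were measured. In Ik1ER cells 66 of them lay below 0 with 4OHT, against 51.2% of all genes, with a median of -0.08. limma called 1, Naf1, which fell, and 83 were not called. Of all genes 2.53% were called lower and 5.34% in either direction. Between the lines in ethanol the median of the 84 was -0.01, with 48 below 0, against -0.07 for the members. In 4OHT it was -0.11, with 67 below 0, against -0.19 for the members. Naf1 encodes the assembly factor that hands over the box H/ACA particle before Gar1 joins it. Its values were 10.66 and 10.75 in MigR1 ethanol arrays, 10.60 and 10.69 in MigR1 4OHT arrays, 10.84 and 10.73 in Ik1ER cells in ethanol and 10.18 and 10.07 in Ik1ER cells in 4OHT. Naf1 fell by 0.66 (SE 0.08, limma, adjusted p = 0.00429), and the call held with each array left out in turn (adjusted p at most 0.0366). Its difference from MigR1 cells in 4OHT was -0.52 (adjusted p = 0.0113), and the difference between the 4OHT effects was -0.60 (adjusted p = 0.0609). The call against MigR1 cells did not survive leaving out either MigR1 4OHT array or the second Ik1ER 4OHT array (adjusted p up to 0.102). All 7 measured snoRNP factors outside the members lay below 0 in Ik1ER cells, from -0.66 to -0.10, while of 11 further polymerase I factors 7 did. Of 35 small subunit and 31 large subunit genes 28 and 24 lay below 0.

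Of the MYC genes, Myc fell with 4OHT in Ik1ER cells by 0.48 (SE 0.08, limma, adjusted p = 0.0123), from 11.68 and 11.55 to 11.14 and 11.14, with 11.52 to 11.64 on the MigR1 arrays. Leaving out the Ik1ER ethanol array of replicate 1 ended the Myc call (adjusted p = 0.0808), as did leaving out both replicate 2 arrays of Ik1ER cells (adjusted p = 0.0656). Against MigR1 cells in 4OHT Myc differed by -0.45 (limma, adjusted p = 0.0175), a call that also depended on single arrays. For Myc the difference between the 4OHT effects was -0.55 (limma, adjusted p = 0.0688). Mycn read 13.79 to 13.83 on the 4 MigR1 arrays and 12.77 to 13.17 on the 4 Ik1ER arrays, and was lower in Ik1ER cells in 4OHT (-0.78, SE 0.11, adjusted p = 0.00744). The Mycn call was lost when either MigR1 4OHT array was left out (adjusted p up to 0.0655) and with the mean over its probe sets (-0.32, adjusted p = 0.0515). Between the lines in ethanol Mycn differed by -0.92 (SE 0.11, limma, adjusted p = 0.433) and was not called. With 4OHT in Ik1ER cells Mycn differed by 0.16 (adjusted p = 0.521). The part of either gene in the members' values was not tested.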

How the data were processed

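Per the labels' protocols, 2.0 to 2.5 µg of total RNA went onto each Affymetrix array after biotin labelling. Deposited values are log2 expression values made with RMA by the authors, per the submitters' processing notes. The sources used here do not say whether all arrays were normalised together. RMA gives arrays a common distribution. Of 45101 probe sets, 34945 have 1 gene symbol in the platform annotation, and all 39 measured members matched a RefSeq gene with the same symbol. Group means were fitted to the 8 arrays with limma 3.58.1 in R 4.3.3 (4 residual degrees of freedom), with 5 contrasts. The script was tested on simulated data. The members, lists, naming rule and alternatives were chosen with earlier results of these data known. Values on every array are given for members called in a contrast or among its 3 smallest p-values, and those of the compared groups for examples of each role. Alternatives changed the block, filter, normalisation, probe set choice, eBayes settings, covariate or arrays.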

Additional observations from a re-analysis of the deposited data

How the results depend on the processing

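The members' median kept its sign under all alternatives in 4OHT against ethanol in Ik1ER cells (-0.15 to -0.08 with an array left out), in Ik1ER against MigR1 cells in 4OHT (-0.20 to -0.16) and in ethanol (-0.11 to -0.02), and in the difference between the 4OHT effects (-0.16 to -0.09). In MigR1 cells it lay between -0.02 and 0.02 over all alternatives. Counts of called members depended on the setting. For 4OHT in Ik1ER cells the 1 call became 2 with dim genes left out, 6 with trend and robust eBayes (Ddx21, Polr1b, Rrp1b, Dkc1, Nhp2 and Gnl3), and 0 with only the arrays compared, with a log2 difference of at least 0.5 required, without both replicate 2 arrays of Ik1ER cells, or with any array left out (0 to 0). With the mean over probe sets the 1 call was Nop16. For Ik1ER against MigR1 cells in 4OHT the 3 calls became 10 with trend and robust eBayes and 0 with only the arrays compared, with the required difference of 0.5, with every probe set on its own or without both replicate 2 arrays, and ranged from 0 to 2 with an array left out. The other 3 contrasts kept 0 calls. Heatr1 with 4OHT in MigR1 cells reversed to 0.11 with the mean over probe sets. The cause was not tested. With the replicate block the counts stayed at 1 and 3. The labels do not say what a shared replicate number stands for, and the numbers were not taken as pairs. Deviations of same-numbered arrays correlated at 0.45 within the Ik1ER line, 0.27 within MigR1 and from -0.07 to 0.10 between lines. Tests of genes with differences near 0.1 are limited by the 2 arrays per group.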

Other observations

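The cytosolic ribosomal protein genes, whose products the assembly factors build into subunits, lay near 0 as a list. Their median level was 14.09 to 14.12 (log2) over the arrays, above the mean of the brightest member (13.74). Whether the arrays register differences equally well at that level was not tested. In 42 of them with a probe set of their own, the median difference between 4OHT and ethanol in Ik1ER cells was -0.01, with 29 of 42 below 0, and limma called 1 lower and 41 not at all. In 4OHT their median difference between Ik1ER and MigR1 cells was near 0, with 20 of 42 below 0, and limma again called 1 lower and 41 not at all. The gene was Rpl12 in both, named after its values were seen, at -0.43 (adjusted p = 0.0458) and -0.93 (adjusted p = 0.00228). No test of the difference between the 2 lists was made.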
